A study of Mus musculus with 12 samples.

Results

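The genes described here are 9 genes that mark macrophages living in tissues: Siglec1, Cd5l, Vcam1, Adgre1, Marco, Spic, Folr2, Lyve1 and Cd163. They were read from the 35275 genes listed for each library, and were chosen by name with earlier measured values of these same libraries known, so their counts are descriptions and not independent evidence of a direction. RNA was sequenced from bone marrow derived macrophages of wildtype mice in 12 libraries, 4 in each of 3 groups. All cultures received M-CSF together with IL-4 and IL-10, and for 6 days either DMSO, the solvent control, olaparib, an inhibitor of the PARP enzymes, or MNA (N-methylnicotinamide), a derivative of nicotinamide. The design asks how olaparib or MNA changes expression against the control. The cells were differentiated in a dish from marrow, so none of these libraries holds a macrophage taken from a tissue, and a bulk library cannot tell fewer cells of a type from less RNA per cell. The study's legends say that the cultures came from several donor mice, both for the olaparib experiment and for the profiles of olaparib and MNA. They do not say which library came from which mouse.

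Tissue macrophages differ from monocyte-derived ones in the receptors they carry for debris, lipoproteins, hemoglobin and sialylated surfaces. Siglec1 (sialoadhesin, CD169) binds sialic acids and is known from macrophages of spleen and lymph node. Marco and Cd163 are scavenger receptors, for bacteria and particles and for the hemoglobin-haptoglobin complex. Cd5l (AIM) is a secreted scavenger protein of Kupffer cells, the macrophages of the liver, and of other tissue macrophages, and Folr2 and Lyve1 encode a folate receptor and a hyaluronan receptor of perivascular and interstitial macrophages. Adgre1 encodes F4/80, the common surface marker of mouse macrophages, Vcam1 an adhesion molecule that red pulp macrophages carry, and Spic the transcription factor on which red pulp macrophages depend and which heme induces.

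Total counts were 21146291 to 31446849 per library, and the depths of the groups overlapped. MNA replicate 2 did not lie with its group: on the first principal component of log2 CPM (CPM are read counts scaled to the size of the library), which held 49.8% of the variance, it was at -36.0, among the DMSO libraries (-43.7 to -33.6), while the other 3 MNA libraries were at 59.9 to 63.4. It was kept in the tests under its label, and its values are given apart. Most of 10 macrophage markers were abundant in every group. Fcgr1 was scarce, with means of 0.916 CPM in DMSO, 1.31 CPM with olaparib and 0.397 CPM with MNA. The sum of the 10 was 4170 to 5320 CPM in DMSO, 8860 to 10600 CPM with olaparib, 6320 to 7870 CPM in MNA replicates 1, 3 and 4 and 3870 CPM in MNA replicate 2. In DMSO and olaparib libraries it was led by Lyz2, with means of 1920 and 6010 CPM. Of the tissue macrophage genes outside the 9, Cd209b and Cd209f had 0 counts in all 12 libraries, and Timd4, Vsig4 and Clec4f did not pass the filter on low counts.

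Promoter windows, 250 bases before to 50 bases after each start, were taken from a table of RefSeq promoters on GRCm38.p6, in which 5 of the 9 genes matched: Marco, Cd5l, Cd163, Spic and, with 2 starts, Folr2. Those of Siglec1, Vcam1, Adgre1 and Lyve1 were not used here. The windows of Cd5l, Spic and Marco are printed because these genes were among those with higher counts in olaparib than in DMSO libraries, and because 2 of the 3 hold a match to TGCTGA, the core that MAF family factors recognise. Cd163 also lay higher in every olaparib library, but its window held no match and is not printed. The share among the 3 therefore follows from the choice. Capitals mark the matches on either strand, and the sequences run 5′ to 3′ on the strand of the gene, at chr3:87357631-87357930 for Cd5l (plus strand), chr10:88682974-88683273 for Spic (minus strand) and chr1:120504975-120505274 for Marco (minus strand).
Cd5l: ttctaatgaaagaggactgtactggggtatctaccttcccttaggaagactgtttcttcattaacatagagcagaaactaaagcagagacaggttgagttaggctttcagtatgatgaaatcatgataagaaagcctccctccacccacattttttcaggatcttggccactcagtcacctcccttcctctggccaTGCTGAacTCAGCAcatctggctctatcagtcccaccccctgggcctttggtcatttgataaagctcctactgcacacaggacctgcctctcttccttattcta
Spic: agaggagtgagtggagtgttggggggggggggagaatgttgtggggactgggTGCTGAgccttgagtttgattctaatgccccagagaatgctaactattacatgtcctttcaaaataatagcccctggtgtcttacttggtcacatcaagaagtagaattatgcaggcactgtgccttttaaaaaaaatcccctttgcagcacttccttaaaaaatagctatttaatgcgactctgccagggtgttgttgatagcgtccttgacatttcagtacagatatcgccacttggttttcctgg
Marco: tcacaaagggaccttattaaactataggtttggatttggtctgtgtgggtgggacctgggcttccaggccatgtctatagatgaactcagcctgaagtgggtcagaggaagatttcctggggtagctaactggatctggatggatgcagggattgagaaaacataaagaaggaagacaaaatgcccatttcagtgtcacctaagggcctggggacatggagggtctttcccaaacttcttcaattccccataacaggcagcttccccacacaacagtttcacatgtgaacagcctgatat
TGCTGA was found on either strand in 4 of the 6 windows and in 19.5% of all 32851 windows of the table. In the Cd5l window it stood on both strands, beginning at -54 and -46 from the start, so that the copies face each other with 2 bases between them. That arrangement, looked for after it had been seen, was in 2 of the 32851 windows. The Spic match began at -198, and the 2 Folr2 windows held matches at -220 and -19. GAAANNGAA, the core of the interferon-stimulated response element, was in 1 of the 6 windows (Folr2) and in 8.56% of all, and TGANTCA, the AP-1 site, in 1 of 6 (Folr2) and in 7.81% of all. GAGGAAGT, a site of PU.1 and SpiC, the STAT site TTCNNNGAA and the E-box CACGTG were in 0 of the 6, against 3.2%, 8.3% and 7.15% of all windows. A match to letters is no evidence that a factor binds, and the motifs overlap in none of these windows.

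Of the 9 genes, 6 passed the filter on low counts and were tested with edgeR among 12849 genes. Marco, Spic and Lyve1 did not, and are given as counts. Against DMSO, olaparib raised 3 of the 6 (Siglec1, Cd5l and Adgre1) and lowered 0, where 14.3% of all tested genes were called higher and 12.8% lower. MNA raised 0 and lowered 2 (Siglec1 and Cd5l), where 16.3% of all genes were called higher and 12.3% lower. In the direct test of olaparib against MNA, 4 were higher with olaparib (Siglec1, Cd5l, Folr2 and Adgre1) and 0 lower, and 10.9% of all genes were called in each direction. The median log2 fold change of the 6 was 1.06 for olaparib against DMSO, -1.01 for MNA against DMSO and 1.44 for olaparib against MNA, beside medians over all tested genes of 0.00, 0.00 and -0.01. The 2 comparisons with DMSO share their control libraries.

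Siglec1 (chr2:131069220-131086765, minus strand, GRCm38) changed in opposite directions with the treatments. It was at 8.58, 4.99, 4.62 and 6.06 CPM in DMSO replicates 1 to 4, at 42.1, 53.8, 62.6 and 59.6 CPM in the olaparib libraries and at 1.60, 2.26, 1.70 and 1.29 CPM in the MNA libraries. The 3 groups did not overlap, and MNA replicate 2, at 2.26 CPM, lay below every DMSO library although it resembled them over the transcriptome. The mean was 6.06 ± 1.78 CPM in DMSO, 54.5 ± 9.05 CPM with olaparib and 1.71 ± 0.404 CPM with MNA (SD, n = 4), so the olaparib mean was 8.99 times the DMSO mean and the DMSO mean 3.54 times the MNA mean. The log2 fold change was 3.18 ± 0.21 (SE) for olaparib against DMSO (edgeR quasi-likelihood test, adjusted p = 5.18e-06) and -1.81 ± 0.23 for MNA against DMSO (adjusted p = 0.0142). Olaparib against MNA gave 4.98 ± 0.23 (adjusted p = 6.48e-07), the fourth highest log2 fold change of the 12849 genes. In a fit of the MNA and DMSO libraries alone, neither Siglec1 (adjusted p = 0.064) nor Cd5l (adjusted p = 0.0642) passed the threshold.

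Cd5l (chr3:87357881-87371073, plus strand) followed the same order. It was at 22.6, 9.67, 13.2 and 13.1 CPM in DMSO, 59.3, 57.6, 64.0 and 74.1 CPM with olaparib and 0.987, 6.41, 1.43 and 0.764 CPM with MNA. The 3 groups did not overlap, and within MNA replicate 2 stood far above the other 3 libraries but below every DMSO library. The log2 fold change was 2.13 ± 0.46 for olaparib against DMSO (adjusted p = 0.00688), -2.57 ± 0.52 for MNA against DMSO (adjusted p = 0.0142) and 4.70 ± 0.54 for olaparib against MNA (adjusted p = 1.58e-04). Without MNA replicate 2, which was left out after its values were seen, MNA against DMSO was -3.76 ± 0.31 (adjusted p = 2.95e-07), and the DMSO mean was 13.8 times the MNA mean in place of 6.11 times. Across the 12 libraries Siglec1 and Cd5l had a Pearson r of 0.94 in log2 CPM, a description over libraries that share groups and may share donors.

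The other scavenger receptors were scarce. Marco (chr1:120474538-120505024, minus strand) had 2, 1, 2 and 4 reads in the DMSO libraries, 12, 8, 8 and 28 with olaparib and 0, 4, 0 and 2 with MNA. Every olaparib library was above every DMSO and every MNA library. In the fit without a filter, Marco was higher with olaparib than with DMSO (log2 fold change 2.6 ± 0.72, adjusted p = 0.0265) and than with MNA (3.06 ± 0.77, adjusted p = 0.0175). Cd163 (chr6:124304656-124330527, plus strand) was at 1.08, 0.826, 0.838 and 0.984 CPM in DMSO, 2.30, 1.49, 2.10 and 2.16 CPM with olaparib and 3.95, 0.645, 1.04 and 1.17 CPM with MNA. The olaparib libraries lay above the DMSO libraries without overlap, while MNA replicate 1 alone was high among the MNA libraries and replicate 2 was the lowest library of all. Olaparib against DMSO gave 1.11 ± 0.46 for Cd163 (adjusted p = 0.0895), which did not pass the test, and 1.10 ± 0.36 with the replicate number as a block (adjusted p = 0.0485), which did. MNA against DMSO gave 0.86 ± 0.46 (adjusted p = 0.165) and 1.14 ± 0.40 without MNA replicate 2 (adjusted p = 0.0284), but 0.03 without MNA replicate 1. Without MNA replicate 1 the call for olaparib against DMSO was gained as well (1.11 ± 0.24, adjusted p = 0.00706), and olaparib against MNA went from 0.25 ± 0.44 (adjusted p = 0.731) to 1.08 ± 0.26 (adjusted p = 0.0169).

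The folate receptor Folr2 (chr7:101839988-101857194, minus strand) was low in 3 of the MNA libraries. It was at 8.39, 7.84, 8.31 and 8.32 CPM in DMSO, 7.45, 12.9, 12 and 14.1 CPM with olaparib and 0.905, 7.66, 0.965 and 1.53 CPM with MNA. The DMSO libraries were nearly alike, olaparib replicate 1 lay below all of them, and MNA replicate 2 lay just under their lowest. MNA against DMSO gave a log2 fold change of -1.55 ± 0.55 (adjusted p = 0.0508), short of the threshold. It passed with DESeq2 (adjusted p = 0.0368), without a filter (0.0484), with genes kept at a mean of 50 counts (0.0494) and with the replicate block (0.024), which makes 3 genes lowered by MNA in those fits. It did not pass with other normalizations (0.0501 to 0.0541) or in the fit of 2 groups (0.111). With any library other than MNA replicate 2 left out, it did not pass either (0.0611 to 0.133). Without MNA replicate 2 it was -2.86 ± 0.24 (adjusted p = 3.63e-07). Olaparib against DMSO gave 0.50 ± 0.52 (adjusted p = 0.494), or 0.50 ± 0.17 without MNA replicate 2 (adjusted p = 0.0313). Olaparib against MNA gave 2.05 ± 0.55 (adjusted p = 0.0204), although MNA replicate 2 lay above olaparib replicate 1, and this call was lost without olaparib replicate 4 (adjusted p = 0.0521), MNA replicate 3 (0.0511) or MNA replicate 4 (0.0576). Of the 31-base words of Folr2, 56.9% also occur in other genes, with matches counted on either strand. Gm10602 shares the most of these words, and its share alone is not given here. It lies on the opposite strand, overlaps the exons of Folr2 and had 12 to 78 counts of its own per library. Folr2 is therefore uncertain where reads of the genes were split.

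Lyve1 (chr7:110850607-110863239, minus strand), the hyaluronan receptor, had 0, 2, 1 and 4 reads in DMSO, 11, 3, 9 and 15 with olaparib and 3, 2, 0 and 0 with MNA. The olaparib libraries overlapped the DMSO libraries through replicate 2, and all MNA libraries were at or under 3 counts, the depth taken as the floor. Without a filter, olaparib against DMSO gave 2.44 ± 0.83 (adjusted p = 0.0652), which did not pass. Spic (chr10:88674772-88685015, minus strand), the transcription factor, had 4, 4, 7 and 5 reads in DMSO, 19, 15, 6 and 19 with olaparib and 2, 10, 3 and 0 with MNA. Scaled to CPM, the olaparib libraries (0.252 to 0.671) lay just above the DMSO libraries (0.138 to 0.235), and MNA replicate 2 (0.358) lay between olaparib replicate 3 and the rest. Spic did not pass the filter with all 12 libraries. Without MNA replicate 2 it passed, but only through the olaparib libraries, where it is high, so its calls in that fit follow from the filter that admitted it. Its log2 fold change there was 1.59 ± 0.46 for olaparib against DMSO and 2.96 ± 0.62 for olaparib against MNA. With all 12 libraries and no filter it gave 1.58 ± 0.62 for olaparib against DMSO (adjusted p = 0.11).

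Of the surface molecules, Adgre1 (chr17:57358691-57483527, plus strand) was by far the most abundant. It was at 239, 165, 193 and 169 CPM in DMSO, 415, 366, 396 and 370 CPM with olaparib and 318, 179, 210 and 164 CPM with MNA. All olaparib libraries lay above all others, and of the MNA libraries replicate 1 lay above the DMSO libraries and replicate 4 just under their lowest. The log2 fold change was 1.02 ± 0.19 for olaparib against DMSO (adjusted p = 0.00293), 0.19 ± 0.18 for MNA against DMSO (adjusted p = 0.447) and 0.83 ± 0.18 for olaparib against MNA (adjusted p = 0.00831). Vcam1 (chr3:116109949-116129688, minus strand) was near 1 CPM in every group, at 1.41, 0.619, 1.24 and 0.857 CPM in DMSO, 1.20, 0.747, 1.64 and 1.53 CPM with olaparib and 0.864, 0.501, 0.849 and 0.764 CPM with MNA. The groups overlapped, and the log2 fold change was 0.32 ± 0.32 for olaparib against DMSO (adjusted p = 0.472), -0.46 ± 0.33 for MNA against DMSO (adjusted p = 0.296) and 0.78 ± 0.33 for olaparib against MNA (adjusted p = 0.11).

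**Figure D1:**
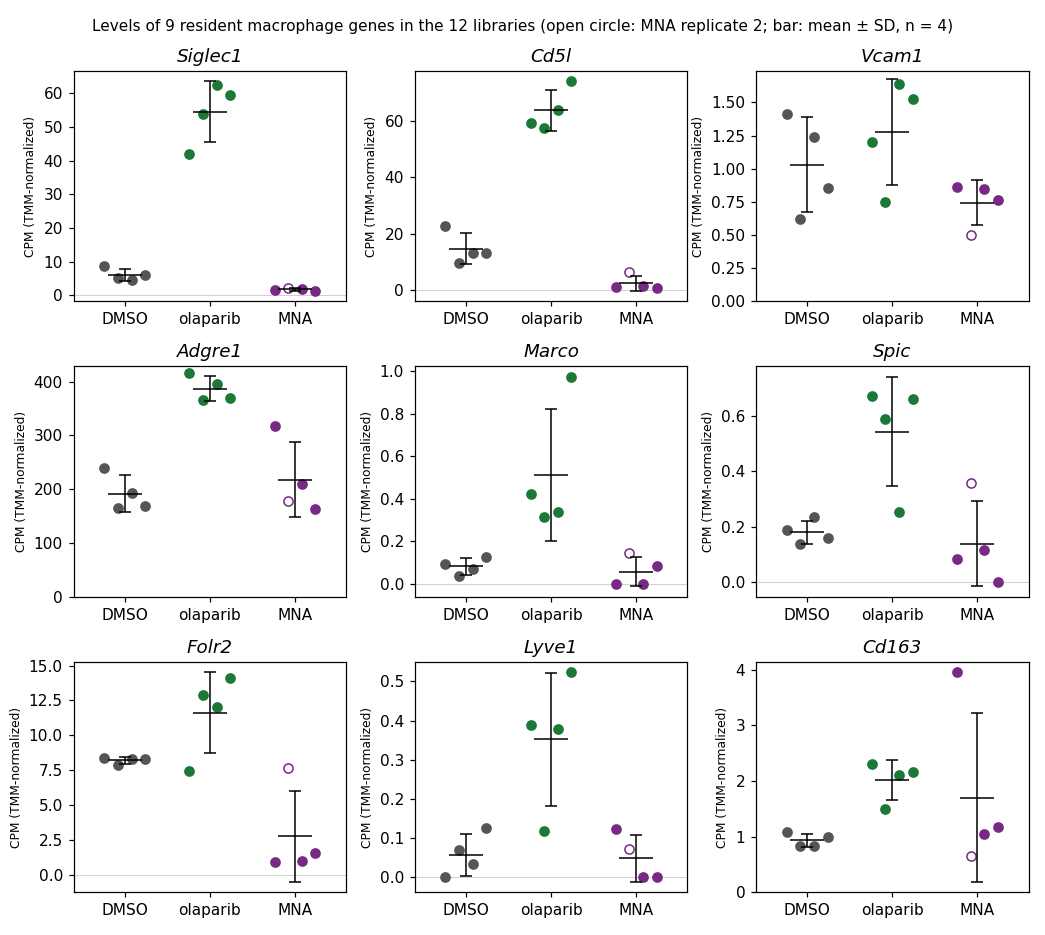
Each panel plots 1 gene in CPM (y axis, TMM-normalized, with its own scale that includes 0) for the 4 libraries of each group (x axis), with the mean and SD as a bar and MNA replicate 2 as an open circle. The olaparib libraries lie above all DMSO libraries for 6 genes (Siglec1, Cd5l, Adgre1, Marco, Spic and Cd163), while those of Vcam1, Folr2 and Lyve1 overlap.

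Counted over all 9 genes, every olaparib library lay above every DMSO library for 6, and for 4 of the 6 tested genes, where 20.7% of all tested genes did so. Every MNA library lay below every DMSO library for 3 genes (Siglec1, Cd5l and Folr2, all tested), against 6.12% of all tested genes. Without MNA replicate 2 it was 4, with Spic added, and 3 of the 6 tested genes, against 27.2%. Every olaparib library lay above every MNA library for 4 genes (Siglec1, Cd5l, Adgre1 and Marco), and for 3 of the 6 tested genes, against 11.5% of all tested genes. Without MNA replicate 2 it was 6 genes, and 4 of the 6 tested, against 23.5%. Since the genes were chosen with these values known, nothing is read from these shares.

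Without MNA replicate 2, 7 of the 9 genes were tested among 13023. Called higher with olaparib than with DMSO were then 6 of them, namely Siglec1, Cd5l, Adgre1, Cd163 and Folr2 and also Spic, which the filter admitted only through the olaparib libraries, where 22.5% of all genes were called higher. MNA lowered 3 (Cd5l, Folr2 and Siglec1) and raised 1 (Cd163), where 26.9% of all genes were called lower and 27.2% higher, and olaparib exceeded MNA for 5 (Siglec1, Cd5l, Folr2, Adgre1 and, admitted in the same way, Spic), where 21.5% did so. Nothing is read from the calls of Spic. The SE of Cd5l in olaparib against DMSO, which involves no MNA library, went from 0.46 to 0.19, since all groups share 1 estimate of the spread.

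**Figure D2:**
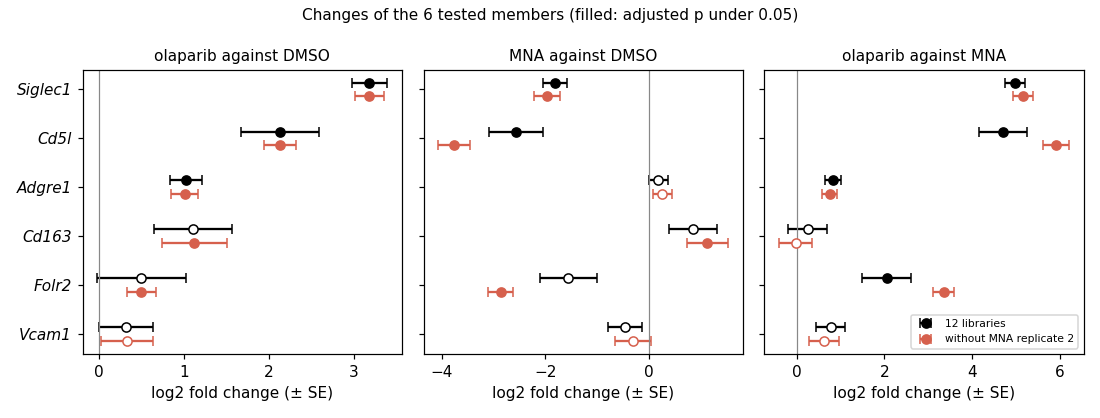
The log2 fold change with its SE (x axis) is plotted for the 6 tested genes (y axis) in the 3 comparisons, with 12 libraries in black and without MNA replicate 2 in red, filled where the adjusted p was under 0.05. Siglec1 runs from -1.81 for MNA to 3.18 for olaparib against DMSO, and leaving out the library moves Cd5l from -2.57 to -3.76 and Folr2 from -1.55 to -2.86 for MNA against DMSO.

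MNA replicate 2 did not lie at the same place for each gene. On a scale of log2 CPM where the DMSO mean is 0% and the mean of the other 3 MNA libraries 100%, it was at 71.2% for Siglec1, 30.3% for Cd5l, 3.51% for Folr2 and -57.7% for Cd163, that is on the far side of DMSO. Over the 3488 genes called lower without it that were also tested with all 12 libraries, its median place was 4.13%, with quartiles of -9.64% and 18.4%. The place of Siglec1 and of Cd5l in this library was above the upper quartile, and that of Folr2 close to the median. This compares a single library and was not tested.

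Per kilobase of exon, the genes ranked in DMSO as Adgre1 (59.1 CPM per kb), Cd5l (7.20), Folr2 (5.31), Siglec1 (0.849), Cd163 (0.171), Vcam1 (0.116), Spic (0.0468), Marco (0.0418) and Lyve1 (0.0196). Neighbours whose libraries overlapped were Cd5l and Folr2, Cd163 and Vcam1, Spic and Marco, and Marco and Lyve1. With olaparib Adgre1 was at 119 CPM per kb and Cd5l at 31.3, followed by Siglec1 at 7.63 and Folr2 at 7.50, whose libraries overlapped. In MNA replicates 1, 3 and 4, Folr2 (0.733), Cd5l (0.520) and Cd163 (0.376) overlapped in turn below Adgre1 (71.2), and Siglec1 was at 0.214 CPM per kb.

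The genes whose log2 CPM ran most like each of the 6 over the 12 libraries were Aldh2 (Pearson r = 0.994) and Slc22a4 (0.987) for Siglec1, Slc25a3 (0.983) and Gtf2h2 (0.982) for Cd5l, and Mill2 (0.984) and Lipn (0.98) for Folr2. Aldh2, a mitochondrial aldehyde dehydrogenase, was at 408 ± 27.2 CPM in DMSO, 615 ± 6.07 CPM with olaparib and 339 ± 18.4 CPM with MNA (SD, n = 4). For Adgre1 they were Sash3 (0.983) and Tmem154 (0.976), for Cd163 the mitochondrially encoded mt-Nd5 (0.959) and Mtmr1 (0.958), and for Vcam1 Trdmt1 (0.911) and Ifitm2 (0.901). These r values describe 12 libraries that share groups and may share donors.

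Other genes of tissue macrophages, listed by hand, mostly rose with olaparib and split with MNA. Of 14 tested of 20 such genes, olaparib raised 9 and lowered 0, with a median log2 fold change of 1.38, and MNA raised 5 and lowered 4, with a median of 0.07. Gas6, which bridges dying cells to phagocytes, went from 12.9 ± 0.839 to 35.0 ± 4.50 CPM with olaparib (log2 fold change 1.44 ± 0.12, adjusted p = 2.51e-05), and its receptor Mertk from 16.8 ± 2.29 to 37.4 ± 4.77 CPM (1.16 ± 0.14, adjusted p = 3.1e-04). Both gave small values with MNA, 0.19 ± 0.12 for Gas6 (adjusted p = 0.245) and -0.05 ± 0.14 for Mertk (adjusted p = 0.788). C1qb, a chain of complement C1q, rose with MNA (2.39 ± 0.50, adjusted p = 0.0142) and gave 1.32 ± 0.48 with olaparib (adjusted p = 0.0613), while the carbonyl reductase Cbr2 fell with MNA (-1.51 ± 0.39, adjusted p = 0.0207) and rose with olaparib (1.50 ± 0.33, adjusted p = 0.00686). Without MNA replicate 2 the counts were 11 higher and 0 lower for olaparib, and 5 higher and 4 lower for MNA. Beside this list and those below, 14.3% of all tested genes were called higher and 12.8% lower with olaparib, and 16.3% and 12.3% with MNA. Without MNA replicate 2, 22.5% were called higher with olaparib, and 27.2% higher and 26.9% lower with MNA. The share called lower with olaparib in that fit is not given here, so numbers lowered by olaparib there stand without it. The lists were written with earlier results known, so nothing is read from their counts.

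Of 14 heme and iron genes, all tested, olaparib raised 9 and lowered 0 (median 0.73), and MNA raised 5 and lowered 2 (median 0.23). Slc40a1, the iron exporter ferroportin, was at 2.14 ± 0.828 CPM in DMSO and 17.5 ± 4.52 CPM with olaparib (SD, n = 4), and at 23.0 ± 4.88 CPM in MNA replicates 1, 3 and 4 against 1.50 CPM in MNA replicate 2. Its log2 fold change was 3.06 ± 0.63 against DMSO for each treatment (adjusted p = 0.00536 for olaparib and 0.0142 for MNA). The heme transporter Slc48a1 rose by 0.75 ± 0.08 with olaparib (adjusted p = 9.98e-05) and 0.29 ± 0.08 with MNA (adjusted p = 0.0232), and Blvrb, a biliverdin reductase, by 1.18 ± 0.15 (adjusted p = 4.06e-04) and 0.67 ± 0.15 (adjusted p = 0.016). Nfe2l2, the oxidative stress factor NRF2, rose by 0.97 ± 0.22 (adjusted p = 0.00923) and 1.09 ± 0.22 (adjusted p = 0.0142). Slc40a1 rose with MNA while Siglec1 and Cd5l fell. Without MNA replicate 2 olaparib raised 9 and lowered 1 of the 14, and MNA raised 8 and lowered 3.

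**Figure D3:**
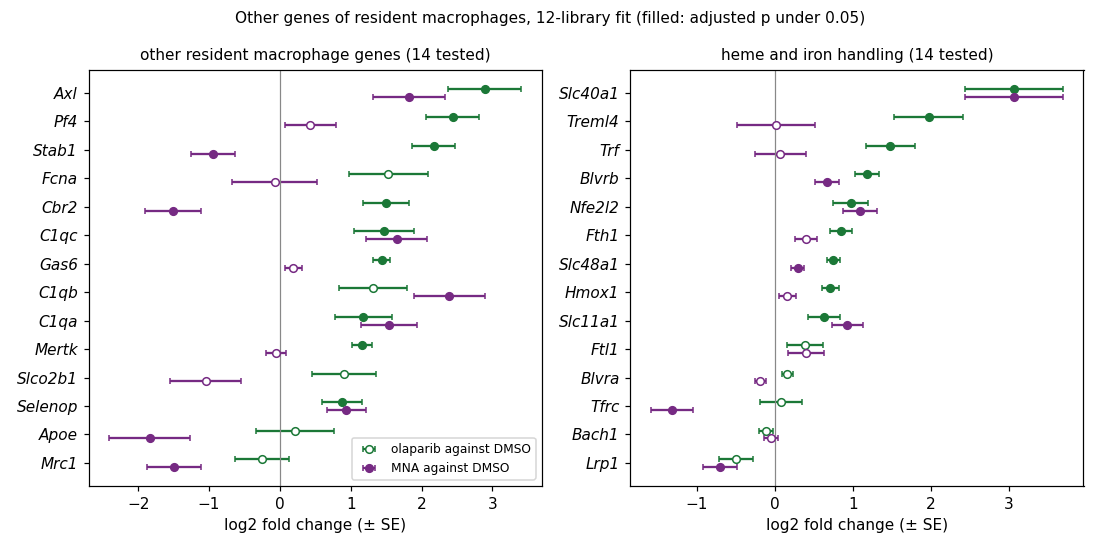
The log2 fold change against DMSO with its SE (x axis) is plotted for each tested gene (y axis) of the lists of other tissue macrophage genes and of heme and iron genes, olaparib in green and MNA in purple, filled where the adjusted p was under 0.05. Stab1 and Cbr2 lie right of 0 with olaparib and left of 0 with MNA, like Siglec1 and Cd5l, while Slc40a1 and Axl lie right of 0 with both.

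Of 18 tested macrophage transcription factors of 20, olaparib raised 3 and lowered 2 (median -0.18), and MNA raised 2 and lowered 8 (median -0.34). With MNA replicate 2 left out, olaparib raised 4 and lowered 7, and MNA raised 4 and lowered 10. Rxra, a partner of many nuclear receptors, rose with olaparib (0.56 ± 0.08, adjusted p = 8.45e-04) and fell with MNA (-0.42 ± 0.08, adjusted p = 0.0142). Pparg, a lipid-sensing nuclear receptor that IL-4 induces, fell with olaparib (-1.14 ± 0.22, adjusted p = 0.00352) and with MNA (-0.62 ± 0.21, adjusted p = 0.0485). Maf, the c-MAF factor, fell with MNA (-0.86 ± 0.20, adjusted p = 0.017) and gave 0.41 ± 0.20 with olaparib (adjusted p = 0.136).

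Of 14 tested ligands and partners of the 9 genes, of 16 listed, olaparib raised 3 and lowered 3 (median -0.00), and MNA raised 4 and lowered 1 (median 0.33). The counts without MNA replicate 2 were 6 higher and 4 lower with olaparib, and 6 higher and 3 lower with MNA. Hp, haptoglobin, which carries hemoglobin to CD163, went from 0.509 ± 0.0967 to 3.07 ± 0.846 CPM with olaparib (2.58 ± 0.46, adjusted p = 0.00266), and the folate and heme transporter Slc46a1 rose by 0.77 ± 0.14 (adjusted p = 0.00247). With MNA, Csf1, the gene of M-CSF, rose by 0.84 ± 0.15 and Fasn, the fatty acid synthase that AIM is known to inhibit, by 1.16 ± 0.22 (adjusted p = 0.0142 for each). Of 13 tested family relatives of 22, olaparib raised 6 and lowered 0 (median 0.61), and MNA raised 4 and lowered 3 (median 0.11). Of 14 tested without MNA replicate 2, 10 were higher and 0 lower with olaparib, and 7 higher and 4 lower with MNA. Siglece, the relative added in that fit, was at 0.0555 CPM in DMSO, 0.406 CPM with olaparib and 0.322 CPM in MNA replicates 1, 3 and 4. It passed the filter only through treated libraries, where it is high, so nothing is read from its calls. Siglecf, another sialic acid receptor, went from 4.76 ± 1.48 to 46.4 ± 11.8 CPM with olaparib (3.28 ± 0.27, adjusted p = 2.51e-05) and gave 0.61 ± 0.27 with MNA (adjusted p = 0.0969). Icam1, an adhesion relative of Vcam1, rose with both (1.79 ± 0.29, adjusted p = 0.00148, and 1.39 ± 0.28, adjusted p = 0.0142), and the hyaluronan receptor Stab2 fell with MNA (-2.27 ± 0.52, adjusted p = 0.0162).

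Markers of other cells moved with some of these results, and their part in them was not tested. Of 6 tested monocyte markers of 8, olaparib raised 3 and lowered 0, and MNA raised 4 and lowered 1, or 4 and 0, and 6 and 1, of 7 tested without MNA replicate 2. Plac8, the marker added there, was at 0.144 CPM in DMSO and 0.922 CPM in MNA replicates 1, 3 and 4, where it is high. Nothing is read from its call with MNA. F13a1 went from 0.238 ± 0.18 to 10.0 ± 1.72 CPM with olaparib (5.32 ± 0.44, adjusted p = 2.51e-05), and Ly6c2 did not pass the filter. Ms4a4c was scarce, at 0.0536 ± 0.0176 CPM in DMSO, 0.447 ± 0.0705 CPM with olaparib and 0.338 ± 0.243 CPM with MNA. It gave 2.95 ± 0.58 with olaparib and 2.54 ± 0.60 with MNA. It passed the filter only through treated libraries, where it is high, so nothing is read from its calls. The sum of the 8 was 1150 to 2180 CPM in DMSO, 1370 to 2560 CPM with olaparib and 356 to 684 CPM in MNA replicates 1, 3 and 4 against 1250 CPM in MNA replicate 2, and was led by Fn1. Of the 10 macrophage markers, olaparib raised 5 and lowered 1, and MNA raised 5 and lowered 0, or 6 and 1, and 6 and 2, without MNA replicate 2. Cd68 was the marker that olaparib lowered (-0.55 ± 0.10, adjusted p = 0.00353). Itgam, a complement receptor chain, rose with olaparib (1.74 ± 0.22, adjusted p = 3.53e-04), and Csf1r, the M-CSF receptor, with MNA (1.45 ± 0.32, adjusted p = 0.0153). C1qa, another C1q chain, rose with MNA (1.54 ± 0.40, adjusted p = 0.0215) and olaparib (1.18 ± 0.40, adjusted p = 0.0459).

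Vcam1 and Lyve1 are also made by stromal and endothelial cells. The sum of 10 stromal markers was 15 to 20.9 CPM in DMSO, 15.2 to 27.8 CPM with olaparib and 6.72 to 18.4 CPM with MNA, with 3 tested, of which olaparib raised 0 and lowered 0 and MNA raised 1 and lowered 1. That sum was led by Pdpn, with means of 17.3 CPM in DMSO, 17.5 CPM with olaparib and 8.66 CPM with MNA. The collagen genes Col1a1, Col1a2 and Col3a1 did not pass the filter. Of 4 stromal markers tested without MNA replicate 2, olaparib raised 2 and lowered 0, and MNA raised 1 and lowered 1. Dcn, added in that fit, was at 0.152 CPM in DMSO and 0.448 CPM with olaparib, where it is high. Nothing is read from its call with olaparib. The sum of 8 endothelial and lymphatic markers was 9.28 to 16.1, 10.0 to 12.7 and 3.70 to 8.20 CPM, with 5 tested, 1 higher and 0 lower with olaparib, and 1 higher and 1 lower with MNA, or 1 and 1, and 1 and 2, without MNA replicate 2. Emcn had 0 counts in all libraries. Of 4 tested dendritic cell markers of 6, olaparib raised 2 and lowered 1 and MNA raised 2 and lowered 0, or 2 and 2 without MNA replicate 2, and their sum was 1560 to 1800, 2410 to 2670 and 1650 to 2380 CPM. It was led by Itgax, with means of 1650 CPM in DMSO, 2540 CPM with olaparib and 2040 CPM with MNA. The dendritic cell markers Flt3 and Clec9a did not pass the filter. B cell markers summed to at most 6.83 CPM, with 3 tested, 0 called with olaparib and 3 higher with MNA, and eosinophil, basophil and mast cell markers summed to at most 1.24 CPM, with 0 of 7 tested. Neutrophil markers, 3 tested of 8 and 0 called in either comparison with DMSO, summed to at most 10.0 CPM except in MNA replicate 4, at 65.4 CPM, where 7 erythroid markers, of which 0 were tested and Hba-a2 was at 0 in all libraries, summed to 56.1 CPM against at most 3.94 CPM elsewhere. Without MNA replicate 2, 4 neutrophil markers were tested, and 4 were called higher and 0 lower with MNA and 0 in either direction with olaparib. Ltf, added in that fit, was at 0.4 CPM in DMSO and 3.52 CPM in MNA replicates 1, 3 and 4, where it is high. Nothing is read from its call with MNA.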

How the data were processed

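RNA from the 12 libraries was measured by sequencing of stranded mRNA libraries. For each library the authors deposited a table of unnormalized counts, reads per Ensembl gene ID. Per the labels and the submitters' processing notes, reads were aligned with STAR 2.5.2b to GRCm38 (GRCm38.p5, mm10), and R 3.6.0 and DESeq2 were used. Which strand column the counts come from is not given in the sources used here, nor is the dose of MNA. Of 35275 gene IDs, 34490 were named and placed with GENCODE M21, and 13428 had 0 counts in all libraries.

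Counts were filtered with edgeR's filterByExpr (minimum count 10, minimum total 15), scaled by TMM and tested with edgeR 4.0.16 in R 4.3.3 (quasi-likelihood F test) in 1 fit of the 12 libraries, with Benjamini-Hochberg adjustment over all 12849 tested genes and calls at an adjusted p under 0.05. The SE of a log2 fold change was derived from this test, as its absolute value divided by the square root of its F statistic. CPM use TMM library sizes, and the precision of low genes is limited by their counts. Tables and plots were made with Python 3.11.15. The fit was tested on simulated counts.

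The 9 genes, the 14 gene lists, written by hand, and the tests were chosen with earlier results of these data known. Named besides the 9 were the 2 tested genes per list with the smallest unadjusted p in each comparison with DMSO, and for each of the tested members the 2 genes of highest r among those averaging 100 counts or more. For the stromal, endothelial, neutrophil, dendritic and B cell lists, counts are given in place of those genes, apart from Pdpn and Itgax, which led their sums. Of the genes that this rule picks, 1 is not reported here. Stab1, Axl, Timd4, Vsig4, Clec4f, Cd209b, Cd209f, Fn1, Ly6c2, Fcgr1, Lyz2, Cd68, Emcn and Hba-a2 were named after their values were seen. So were Col1a1, Col1a2, Col3a1, Dcn, Flt3, Clec9a, Siglece, Plac8 and Ltf.

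The labels number the libraries 1 to 4 in each group. How far a library lay from its group mean, gene by gene, correlated between olaparib and DMSO libraries of equal number with r = 0.227, 0.172, 0.225 and 0.408. Between unequal numbers r was at most 0.098, so equal numbers went together in these groups. The main fit has no term for the number, and the replicate block adds it. For MNA and DMSO r was 0.242, 0.114, -0.009 and 0.277, and for olaparib and MNA 0.07, 0.137, 0.131 and 0.392, which is below the limit of 0.1 in 1 pair of each. Unequal numbers reached 0.153 for MNA and DMSO and 0.14 for olaparib and MNA. The MNA group mean included MNA replicate 2, which lay among the DMSO libraries, and so moved the distance of every MNA library. The r values with MNA therefore cannot show whether equal numbers went together there. Where numbers do not mark a shared donor, p-values measure the spread between these libraries only. Alternatives were DESeq2 1.42.0, 3 other normalizations, no filter, a filter at a mean of 50 counts, a block for the replicate number, fits of 2 groups, calls at 0.01, calls that also need a 2-fold change, and each library left out in turn, MNA replicate 2 also together with the block.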

Additional observations from a re-analysis of the deposited data

Results flagged for a closer look

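In 27 groups of 4 levels (9 genes in 3 groups), 5 held a library far from the other 3 by Dixon's test, and chance alone flags about 1 in 20 groups. Cd5l in MNA replicate 2 was at 6.41 CPM, and Folr2 in the same library at 7.66 CPM, each far above the other 3 MNA libraries. Cd163 in MNA replicate 1 was at 3.95 CPM, the highest of the 12 libraries for this gene. Marco in olaparib replicate 4 was at 0.975 CPM (28 reads), the highest of its group. Folr2 in DMSO replicate 2, at 7.84 CPM, was the lowest of a group whose highest was 8.39 CPM, so the gap is small in size.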

How the results depend on the processing

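Of 372 log2 fold changes of the 6 tested genes recomputed under alternatives, 345 kept their direction and side of the threshold, 6 lost the call, 19 gained it and 2 turned their sign. The 2 were not called values: Adgre1 for MNA against DMSO went to -0.05 without MNA replicate 1 (range over left-out libraries -0.05 to 0.31), and Cd163 for olaparib against MNA to -0.02 without MNA replicate 2, and to 1.08 (adjusted p = 0.0169) without MNA replicate 1. The number raised by olaparib against DMSO was 3, and went to 5 in the fit of only these 2 groups and to 6 without MNA replicate 2 and with the replicate block added to that, Spic included, which passed the filter there only through the olaparib libraries. Leaving out 1 library gave 3 to 6. Apart from the fit without MNA replicate 2, the share of all genes called in these other fits is not given here. Nothing is read from the counts. The count of 4 without MNA replicate 4 also includes a gene outside the 6 tested with all libraries. The number raised by MNA was 0, and 1 without MNA replicate 2, also with the replicate block, with a range over left-out libraries of 0 to 1. The number lowered by MNA was 2, with 2 to 3 when 1 library was left out, and 0 in the fit of 2 groups, where Siglec1 and Cd5l had an adjusted p of 0.064 and 0.0642, and 0 at a threshold of 0.01, which demands more by its construction. Where no construction is named, the cause was not tested. Folr2 for olaparib against MNA lost its call in the fit of 2 groups (adjusted p = 0.0675). The replicate block, beside Cd163, brought Folr2 for MNA against DMSO (adjusted p = 0.024) and Vcam1 for olaparib against MNA (adjusted p = 0.0458) past the threshold and changed no other call of the 6 tested genes. Depth limits Marco, Spic and Lyve1, which had at most 28 reads in any library. The 81 recomputed group levels each moved by less than the SD between libraries.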

Other observations

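DMSO replicate 1 had the highest CPM of its group for all 6 tested genes, with Siglec1 at 8.58, Cd5l at 22.6, Adgre1 at 239, Folr2 at 8.39, Cd163 at 1.08 and Vcam1 at 1.41 CPM. In the same library neutrophil markers summed to 10.0 CPM against 1.34 to 1.81 CPM in the other DMSO libraries, and erythroid markers to 3.94 CPM against at most 0.536 CPM. Without this library the calls for olaparib against DMSO were the same for Siglec1, Cd5l and Adgre1. MNA replicate 1, which carries the same number, had the highest Adgre1 (318 CPM), Cd163 (3.95 CPM) and Vcam1 (0.864 CPM) of the MNA group, but the lowest Folr2 (0.905 CPM). Olaparib replicate 1 had the highest Adgre1 (415 CPM) and Cd163 (2.30 CPM) of its group, but the lowest Siglec1 (42.1 CPM) and Folr2 (7.45 CPM).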
